A study of Mus musculus with 11 samples.

Results

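The forkhead transcription factors share a winged-helix DNA-binding domain and were taken here as every gene row whose symbol begins with Fox, a class letter from a to s and a digit. The rule found 44 genes among 37224 rows. They were compared between mouse T cell leukaemias (T-ALL, acute lymphoblastic) that formed from blood progenitors without or with Utx, an X-linked histone demethylase listed as Kdm6a. In every group, cKit-positive progenitors of the C57/BL6 background were infected with a retrovirus that expresses Notch1-IC, the active intracellular form of Notch1, and were transplanted intravenously. The knockout group was Utx-/Y, with 2 bone marrow and 3 spleen samples. The wild-type group was Utx+/+ or Utx+/Y, with 2 bone marrow and 4 spleen samples. Of the 11 samples 3 were repeat runs, and the labels used here name no age of the mice, no number of recipients and no Cre line. The virus drove leukaemia in both groups, and a recipient keeps its own blood and stromal cells.

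Forkhead factors bind a short core motif and sort into lettered classes by sequence. The O class enters the nucleus and turns on genes of quiescence, homing and cell death when PI3K and Akt signalling is low, and in T cells it is known for the expression of Il7r and of lymph node homing receptors. Foxm1 drives genes of mitosis, Foxp3 is the defining factor of regulatory T cells, Foxp1 keeps naive T cells quiet, Foxj1 builds motile cilia, and Foxn1 makes the thymic epithelium. Class A factors act in endoderm, and classes B, C, D and F mainly in the embryo and in stroma.

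The deposited values were 1 pooled read count per gene and genotype, with totals of 106445530 (knockout) and 108015222 (wild-type). Values per animal were not analysed here, so every difference below lacks a check against replicates, and counts from 1 tumour cannot be told from counts shared by all. The groups also held marrow and spleen samples in unlike proportions, so genotype and tissue mix cannot be told apart in these pools. Levels are in CPM, the count scaled by the total of its pool, and log2 ratios are knockout over wild-type with 0.5 counts added to each pool. Ranges in brackets are exact 95% intervals that cover counting error only. A gene is called higher or lower with at least 100 combined counts, a difference of at least 2-fold and an interval without 0. Kdm6a itself was at 10.5 CPM without Utx and 58.3 CPM with it, a log2 ratio of -2.48, which checks the order of the columns. Xist, which silences an X chromosome in female cells, had 75 and 21976 counts, and by its labels the wild-type group includes Utx+/+ (female) cells. Among 18 T cell defining genes, Gata3 was called higher (log2 ratio 1.11), Thy1 lower (-1.06) and 16 neither, and their summed level was 4892 and 5471 CPM. The call of Thy1 ended under TMM and median of ratios scaling, and with a depth computed without mitochondrial and erythroid genes. The most abundant uncalled members were Tcf7, Lck and Cd3e, at log2 ratios of 0.37, -0.39 and -0.03.

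Of the 44 forkhead genes 17 had at least 100 combined counts, 6 had 20 to 99, 9 had 1 to 19 and 12 had none. Among the 17, only Foxb2 was called higher and none was called lower. Over all 13833 genes with that many counts, 11.2% were called higher and 5.36% lower. With a minimum of 20 counts, 5 of 23 members were higher and 0 lower, beside 13.6% and 8.7% of all genes. With no count minimum, 5 members were higher and 1, Foxo6, was lower, beside 11.6% and 8.44% of all 23381 genes with a count. With a log2 minimum of 0.58, 2 members were higher and 2 lower, beside 19% and 14.9% of all genes. The median log2 ratio of the 17 was -0.02, beside -0.07 over all those genes, and the mean, 0.45, had the other sign through Foxb2. The median, which is the value of Foxb1, turned to 0.07 with TMM scaling. It stayed at -0.02 with Foxb2 set against a floor of 3 wild-type counts. Summed over all members, forkhead transcripts made up 599.9 CPM without Utx and 715 CPM with it.

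Foxb2 carried the family's largest difference, and the bases before its start are printed because its counts came from the knockout pool alone. The Foxo1 window is shown beside it as that of an abundant member present in both pools. Both are the 250 bases before a RefSeq start on GRCm38.p6, 5′ to 3′ on the gene's strand. Foxb2 is at chr19:16873831-16874080 on the minus strand and Foxo1 at chr3:52268087-52268336 on the plus strand. Capitals would mark the forkhead core motif TGTTTAC or its reverse complement GTAAACA, and neither window holds it.
Foxb2: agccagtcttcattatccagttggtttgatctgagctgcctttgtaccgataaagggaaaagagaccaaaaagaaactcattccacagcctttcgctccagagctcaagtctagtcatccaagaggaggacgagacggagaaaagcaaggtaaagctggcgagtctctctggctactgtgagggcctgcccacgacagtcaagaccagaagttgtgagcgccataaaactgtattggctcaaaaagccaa
Foxo1: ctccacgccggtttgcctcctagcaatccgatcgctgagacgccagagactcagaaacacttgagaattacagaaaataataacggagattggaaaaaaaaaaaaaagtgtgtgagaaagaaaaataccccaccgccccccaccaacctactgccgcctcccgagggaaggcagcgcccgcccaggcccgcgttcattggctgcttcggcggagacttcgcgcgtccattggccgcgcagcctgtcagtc

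The 300-base windows, which add 50 bases after the start, had a CpG content of 0.50 of that expected from their base composition for Foxb2 and 1.10 for Foxo1. RefSeq windows were matched for 28 of the 44 members, with a median CpG ratio of 0.68 over their windows, against 0.38 over all windows. The core motif was found in 1 of the 28, Foxa1, which had no counts, and in 4.05% of 27025 genes with a window. No match says only that these letters are not in this window.

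Foxb2 (ENSMUSG00000056829, chromosome 19, 16872319 to 16873805 on the minus strand, GRCm38, GENCODE M21), a class B factor and close relative of Foxb1, had 464 counts without Utx and 0 with Utx. That is 4.36 CPM against no count, for which a floor of 3 counts, 0.0278 CPM, was set. Against that floor the knockout level was 157-fold higher, a log2 ratio of 7.29. The lower end of its exact counting interval was 6.99, so the counts allow a smaller difference than that. Foxb2 was 1 of 11 genes with at least 100 combined counts and no count in the wild-type pool. In the authors' deposited table its Benjamini-Hochberg q from DEGseq, a test on pooled counts without spread between tumours, was 1.11e-78. The nearest measured protein-coding genes were Vps13a, at a log2 ratio of 0.19, and Prune2, called higher at 1.72 on 291 and 89 counts. The GENCODE M21 annotation also places a noncoding gene on the other strand over Foxb2. Whether counting used strand is not given, so reads of the pair cannot be told apart.

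Foxb1 (ENSMUSG00000059246), known for its part in the embryonic midbrain and hypothalamus, was present in both pools at almost equal levels, with 1496 and 1534 counts or 14.1 and 14.2 CPM. Its log2 ratio was -0.02 (-0.12 to 0.09), and it changed sign with TMM scaling, at 0.07. The class B genes thus stood on both sides of the call rule, and their intervals did not overlap. An annotated antisense gene overlaps Foxb1 as well. Of the class A factors, pioneer factors of endoderm, Foxa1 and Foxa2 had no counts and Foxa3 had 1 and 3.

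**Figure D1:**
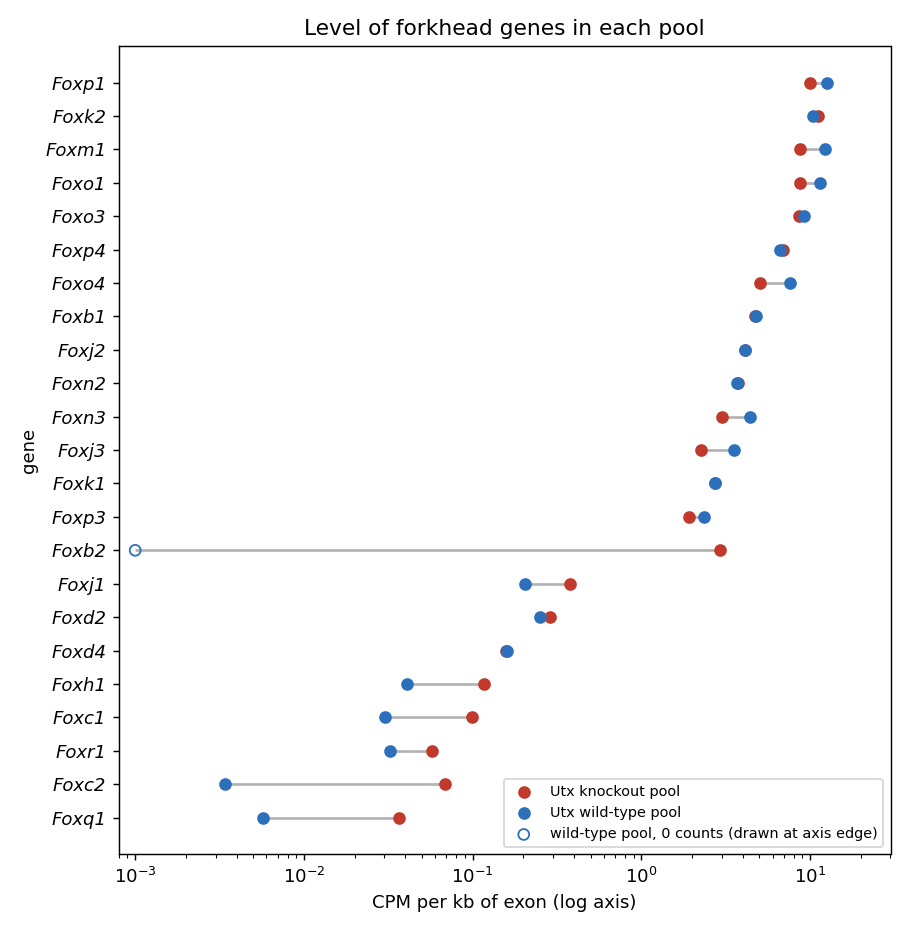
Level of the 23 forkhead genes with at least 20 combined counts, in CPM per kb of GENCODE M21 exon on a log axis, in the knockout pool (red) and the wild-type pool (blue). Foxb2, at 2.93 (knockout) and 0 (wild-type, open circle at the axis edge), has the widest gap, while Foxp1, Foxk2, Foxm1, Foxo1 and Foxo3 lie close together at the top.

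Levels were compared between genes per kb of annotated exon, which may differ from the gene models the authors counted. In the knockout pool Foxk2 was highest, at 11.1 CPM per kb, then Foxp1 at 10.01. Foxm1, Foxo1 and Foxo3 followed at 8.74, 8.74 and 8.63 CPM per kb, and their counting intervals overlapped. In the wild-type pool Foxp1 and Foxm1 led at 12.7 and 12.3 CPM per kb with overlapping intervals, followed by Foxo1 at 11.4, Foxk2 at 10.5 and Foxo3 at 9.18. Foxb2 in the knockout pool, at 2.93 CPM per kb, was level within counting error with Foxn3, at 3.00, and with Foxk1, at 2.74.

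The O class was expressed in both pools, with ratios below 0 and no call. Foxo1 (ENSMUSG00000044167), the main O factor of lymphocytes, had 8057 and 10667 counts, or 75.7 and 98.8 CPM, a log2 ratio of -0.38 (-0.43 to -0.34). Foxo3 (ENSMUSG00000048756), which also serves red cell precursors and cell death, had 6952 and 7511 counts, a log2 ratio of -0.09 (-0.14 to -0.04). Foxo4 (ENSMUSG00000042903, chromosome X) had 1882 and 2866 counts, a log2 ratio of -0.59 (-0.67 to -0.50). None reached 2-fold, and their intervals did not overlap one another. Foxo3 changed sign to 0.00253 when depth was computed without mitochondrial and erythroid genes, while Foxo1 and Foxo4 stayed below 0 under each scaling run. Foxo6, a brain factor, had 0 and 12 counts, too few for a call, and the upper end of its log2 interval was -1.45. Together the class made up 159 and 195 CPM. Foxo1 held 47.7% (knockout) and 50.7% (wild-type) of that, and Foxo3 41.2% and 35.7%.

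The P class was led by Foxp1 (ENSMUSG00000030067), with 14645 and 18812 counts or 138 and 174 CPM, a log2 ratio of -0.34 (-0.37 to -0.31). Foxp4, its relative, was at 34.3 and 32.7 CPM, a ratio of 0.07 (0.00018 to 0.13). Foxp2, a factor of neurons, had 6 and 5 counts. Foxp3 (ENSMUSG00000039521, chromosome X) had 934 and 1165 counts, or 8.77 and 10.8 CPM, a log2 ratio of -0.30 (-0.42 to -0.17). The X-linked members Foxo4 and Foxp3 stood below the median of the 449 measured genes of that chromosome, -0.03, and genotype and sex cannot be told apart in these pools. Flicr, a noncoding RNA known as a negative regulator of Foxp3, overlaps Foxp3 on the same strand and was called lower with 45 and 189 counts, a log2 ratio of -2.04 (-2.55 to -1.57). Ccdc22 and Ppp1r3f overlap Foxp3 on the other strand, at 0.03 and 0.08, so some reads of these genes may be shared.

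Foxm1 (ENSMUSG00000001517, chromosome 6), the factor of mitotic genes, had 5354 and 7650 counts, or 50.3 and 70.8 CPM, a log2 ratio of -0.49 (-0.54 to -0.44). Its neighbour Rhno1, which lies before it on the other strand, was at -0.66, and the overlapping gene Tex52 at -0.72, neither called. Foxn3 (ENSMUSG00000033713), a repressor linked to cell cycle checkpoints, was at 34.5 and 51.0 CPM, a ratio of -0.57 (-0.63 to -0.50). Foxj3 (ENSMUSG00000032998) was at 24.9 and 39.1 CPM, the lowest ratio among the 17 members at -0.65 (-0.72 to -0.58). Neither reached the fold minimum of the call rule. Foxn2 was at 27.7 and 27.3 CPM, a ratio of 0.02 (-0.05 to 0.09).

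The K class represses autophagy genes and favours glycolysis. Foxk2 (ENSMUSG00000039275) was at 58.5 and 55.0 CPM, a log2 ratio of 0.09 (0.04 to 0.14), and Foxk1 at 20.8 and 20.8 CPM, a ratio of 0.00105 (-0.08 to 0.09). Foxj2 was at 22.1 and 22.1 CPM, a ratio of -0.00385 (-0.09 to 0.08). The intervals of Foxk1 and Foxj2 held 0, and Foxj2 turned to 0.08 with TMM scaling. Foxj1 (ENSMUSG00000034227), the master factor of motile cilia, had 106 and 58 counts and a ratio of 0.89 (0.42 to 1.38). Foxd2 had 79 and 70 counts and a ratio of 0.19 (-0.29 to 0.68).

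Of the 17 members, 8 had an interval wholly below 0, 4 wholly above and 5 held 0. Over all genes with at least 100 counts the shares were 46.7% below and 37% above, so 8 of 17, or 47.1%, was near the background. The authors' deposited table gave 16 of its 26 forkhead genes with a fold change a Benjamini-Hochberg q under 0.05, beside 67.8% of all genes given one there.

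**Figure D2:**
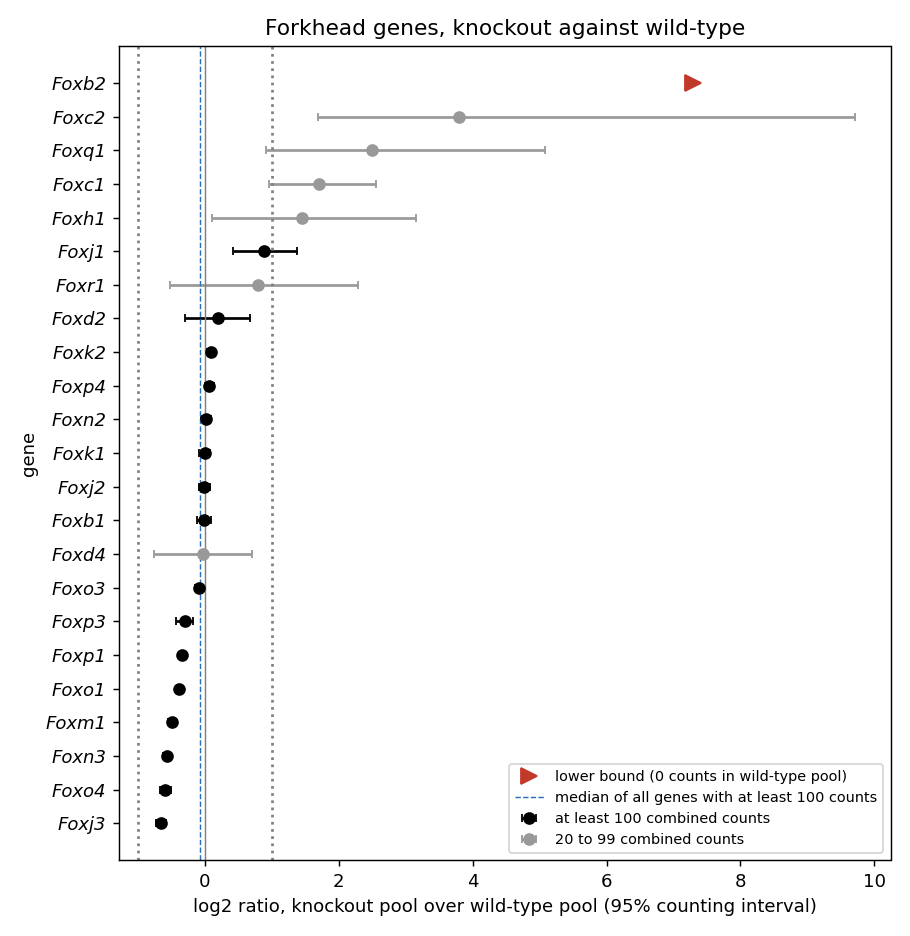
Log2 ratio of knockout over wild-type for the 23 forkhead genes with at least 20 combined counts, with exact 95% counting intervals. Foxb2 is drawn at 7.29, its ratio against a floor of 3 counts, which the legend calls a lower bound. The lower end of its exact interval was 6.99. The 14 members of most counts lie between -0.65 and 0.09, and dotted lines mark 2-fold.

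The members with 20 to 99 counts had too few for a call, and 5 of 6 had ratios above 0. With at least 20 counts, 11 of 23 members and 54.3% of all genes had ratios below 0. The share of all genes with 20 to 99 counts alone was not computed, so whether the 5 of 6 is a lean of these members cannot be told. Foxc1 (ENSMUSG00000050295), which maintains the Cxcl12-rich stromal cells of the marrow niche, had 62 and 19 counts, a log2 ratio of 1.70 (0.97 to 2.55). Foxc2, a factor of lymphatic vessels, had 20 and 1 counts, a ratio of 3.79 (1.70 to 9.72). Foxq1 had 19 and 3 counts, a ratio of 2.50 (0.92 to 5.08). The intervals of these 3 genes lay wholly above 0. Foxh1, the DNA-binding partner of Smad proteins in Nodal signalling, had 17 and 6 counts and a ratio of 1.45 (0.11 to 3.15). Foxr1 had 14 and 8 counts and Foxd4 33 and 34, with intervals that held 0. Foxq1 is overlapped at its start by A530084C06Rik on the other strand, with 17 and 1 counts, and Foxc2 lies inside the long gene model Gm20388, with 3802 and 1365 counts. Reads of these pairs cannot be told apart.

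In the forkhead clusters of the genome, counts were low or absent. On chromosome 13, Foxq1 and Foxc1 had counts while Foxf2, which lies between them, had none. On chromosome 8, Foxc2 had 21 combined counts, its neighbour Foxf1a had 0 and 2, and Foxl1 had 3 and 0. On chromosome 4, Foxe3 beside Foxd2 had none. The other members with 1 to 19 counts were Foxs1 with 4 and 0, Foxi1 with 0 and 1, Foxn4 with 0 and 1, and Foxn1 with 0 and 2. Among those without any count were Foxa1, Foxa2, Foxd1, Foxd3, Foxe1, Foxe3, Foxf2, Foxi2, Foxi3, Foxl2 and Foxr2. For them 3 counts, about 0.028 CPM in either pool, was taken as the floor of detection.

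Foxc factors act in stromal and endothelial cells. Among 15 genes of those cells with at least 100 counts, 7 were called higher, 1 lower and 7 neither, and the median log2 ratio was 0.82. For this list and those below, the shares over all genes with that many counts were 11.2% higher and 5.36% lower. The median over all those genes was -0.07. Cxcl12, Pdgfra and Dcn were highest at 2.92, 2.50 and 1.68, Col3a1, Vcam1 and Lepr were higher at 1.32, 1.37 and 1.42, and Pdgfrb was lower at -1.48. The abundant members Pecam1, Col1a2 and Eng were at 0.22, -0.37 and 0.56. Their summed level was 271 and 237 CPM and no member was at 0. In bulk samples, fewer cells of a type and less RNA per cell cannot be told apart, and the part of stromal cells in the ratios of Foxc1, Foxc2 and Foxq1 was not tested.

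The regulators that act on O class factors were next. This list of 32 genes, all with at least 100 counts, held 6 higher and none lower, 26 neither, with a median of 0.00032. The shares over all genes with that many counts were 11.2% higher and 5.36% lower. Inpp4b and Inpp5d, phosphatases of the lipids made in PI3K signalling, were among the higher genes. Inpp4b was at 28.1 and 2.07 CPM, a log2 ratio of 3.75 (3.56 to 3.96). Inpp5d was at 95.6 and 38.9 CPM, a ratio of 1.30 (1.25 to 1.35). Other higher genes act in different ways: Pik3r5 (1.42) is a regulatory subunit of PI3K gamma, Stk3 (1.11) is a kinase of the Hippo pathway, and Sgk1 (1.00, just at the minimum) phosphorylates O class factors as Akt does.

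The kinase genes Akt1 and Akt2 and the abundant binding partners were not called. Akt1 was at 208 and 249 CPM and a log2 ratio of -0.26, and Akt2 at -0.24. Usp7, which removes ubiquitin from O class factors, was at -0.41, and Ywhaz, which holds phosphorylated O class factors in the cytoplasm, at -0.06. The catalytic subunits Pik3ca and Pik3cd were at -0.33 and 0.61, and the coactivator gene Crebbp was lowest of the list at -0.63.

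Known targets of O class factors went in both directions. Of 34 genes, all with at least 100 counts, 12 were higher, 2 lower and 20 neither, with a median of 0.41. Of all genes with that many counts, 11.2% were higher and 5.36% lower, with a median of -0.07. The list was drawn up with earlier results of these data known, so the count is no independent evidence of a direction. The highest were Ctla4, an inhibitory receptor (48.1 and 4.43 CPM, a log2 ratio of 3.44, 3.30 to 3.58), Fasl, a death ligand (2.87 on 162 and 22 counts), and the homing receptor gene Ccr7 (2.64). Il7r, S1pr1 and the recombinase gene Rag1 were higher too, at 2.49, 2.03 and 1.60. Irs2, an adaptor of insulin signalling, was higher at 1.04, and Klf2, the factor of T cell egress, was at 0.79 and not called.

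Sesn1 and Tnfsf10 were the lower targets. Sesn1, a stress-induced inhibitor of mTOR signalling, was at 23.4 and 72.2 CPM, a log2 ratio of -1.63 (-1.69 to -1.56). Tnfsf10, the death ligand TRAIL, was at 2.56 and 7.70 CPM, a ratio of -1.58 (-1.79 to -1.39). Members of cell death and growth control that were not called included Txnip (-0.89), Bcl2l11 (-0.70), Trp53inp1 (-0.69), Bbc3 (-0.66) and Ccng2 (-0.62). The abundant antiproliferative gene Btg1 was at 0.39 and Cdkn1b at 0.46. Cdkn1a, a cell cycle inhibitor that p53 also controls, was higher at 1.31. Bnip3, Pdk4 and Rag2 were also higher, at 1.39, 1.96 and 1.09.

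**Figure D3:**
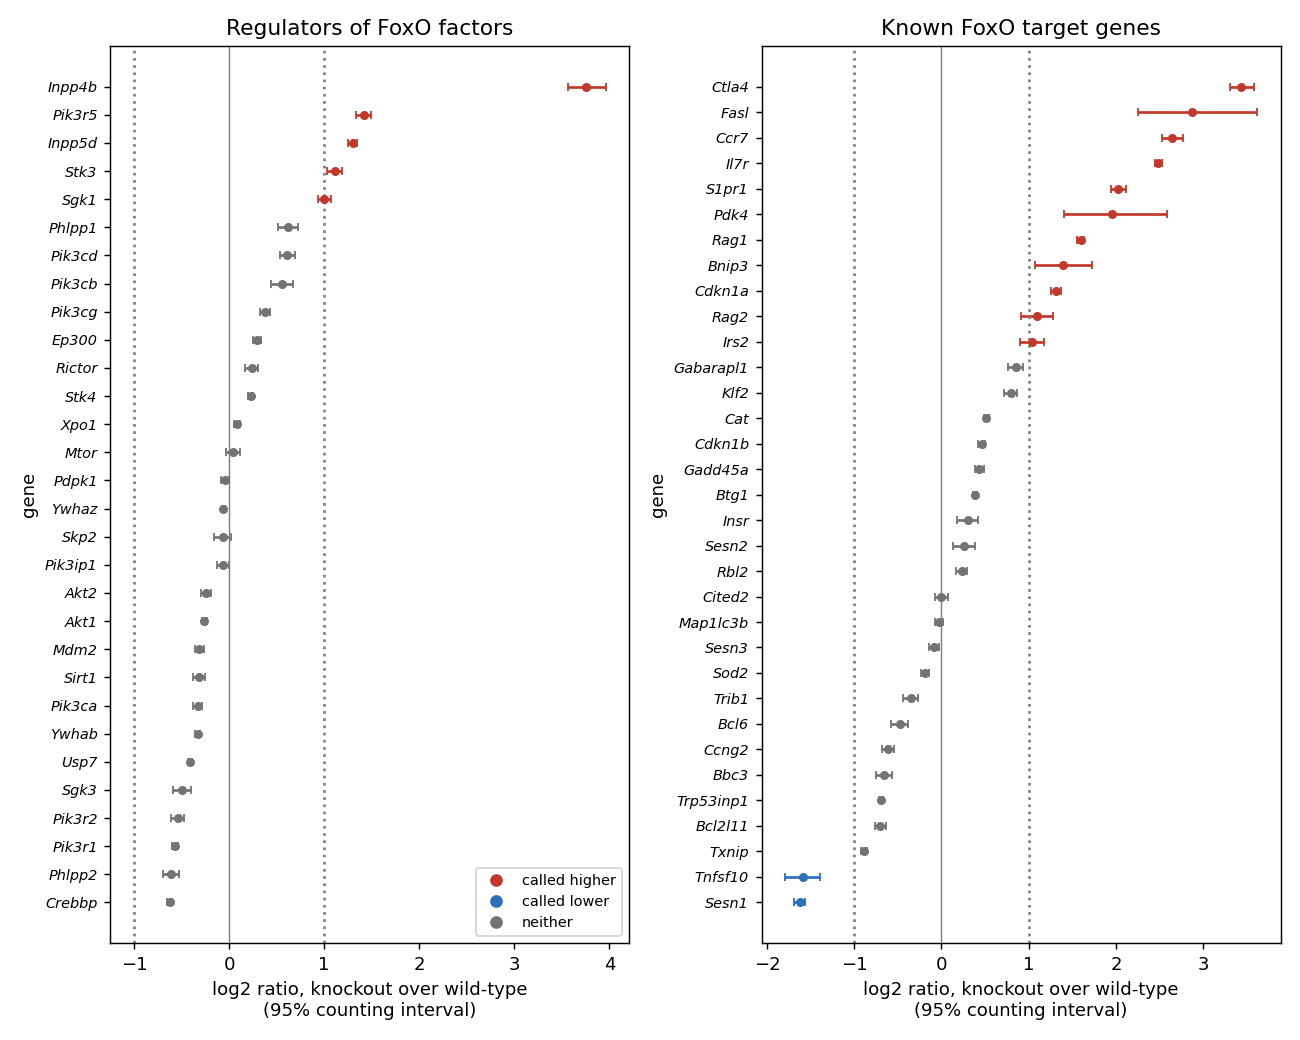
Log2 ratio of knockout over wild-type, with exact 95% counting intervals, for the regulators of O class factors reported here (left) and the known targets reported here (right); dotted lines mark 2-fold. Inpp4b stands apart at 3.75 among the regulators, and the targets run from Sesn1 at -1.63 to Ctla4 at 3.44.

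The core motif was present in the windows of 5 of the 28 targets with a RefSeq window, or 17.9%, beside 4.05% of all genes with a window. The share was 11.5% for the regulators of O class factors, 3 of 26. For the mitotic genes known as Foxm1 targets it was 4.35%, 1 of 23. For the motile cilium genes linked to Foxj1 it was 0 of 19. Some genes have several windows, and a match in any of them was counted. The windows of the targets had a median CpG ratio of 0.74, beside 0.38 over all windows, so the shares are not matched for base composition. The list is of known targets, so its share is no independent evidence of binding. The sites before the start are printed because they are the letters O class factors are known to bind, with the motif in capitals, on GRCm38.p6. All 4 genes lie on the plus strand. They lie at chr7:16310083-16310111 (Bbc3), chr2:128125800-128125828 (Bcl2l11), chr10:96616786-96616814 (Btg1) and chr3:96557825-96557853 (Txnip).
Bbc3: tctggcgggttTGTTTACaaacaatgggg
Bcl2l11: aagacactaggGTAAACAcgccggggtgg
Btg1: gggggtttattTGTTTACaagcagattac
Txnip: ttggaggcctgGTAAACAagggccaagta

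The fifth gene was Sesn1, with its match after the start. Of these 5 genes, Sesn1, Txnip, Bcl2l11 and Bbc3 had log2 ratios below 0 and Btg1 above. Of the 23 targets with a window and no match, 7 had ratios below 0, among them Tnfsf10, and 16 above, among them Il7r. Over all genes with at least 100 counts, 55.2% had ratios below 0. A match is a description of the letters and not a bound site, and the genes were singled out after their values were seen.

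Of the mitotic genes known as Foxm1 targets, none of 28 was called, with a median of -0.17, beside -0.49 for Foxm1 itself. Nek2, Bub1b and Aurkb were lowest at -0.91, -0.82 and -0.58, and Plk1, Kif2c and Ect2 highest at 0.27, 0.17 and 0.14. The abundant members Top2a, Ccna2 and Birc5 were at -0.12, -0.09 and -0.40.

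Regulatory T cell genes, which go with Foxp3, were split. Of 19 genes 8 were higher, 3 lower and 8 neither, with a median of 0.27. Ctla4, Entpd1 and Icos were highest at 3.44, 1.84 and 1.71, and Il2ra (723 and 297 CPM) was higher at 1.28. Gpr83, a receptor found on regulatory T cells, was lower at -3.57 (-3.85 to -3.31) on 124 and 1495 counts, and Tnfrsf4 and Lrrc32 were lower at -1.46 and -1.38. Nrp1, Folr4 and Capg were not called, at -0.62, -0.78 and -0.12. Ctla4 stands in the O class target list as well. Activated T cells and T-ALL cells can express many of these genes, so the list does not measure regulatory T cells alone.

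Motile cilium genes linked to Foxj1 summed to 86.1 and 49.1 CPM, of which Dnahc9 alone held 29.2 and 0.0278 CPM. Most of the difference between the sums thus lay in that 1 gene. Of 35 genes 20 had at least 20 counts, and Dnaic2, Tekt4 and Dynlrb2 had none. Of the 13 with at least 100 counts 4 were higher, 1 lower and 8 neither. Dnahc9, an axonemal dynein, had 3112 and 3 counts, a log2 ratio of 9.82 (8.49 to 12.32), whereas Dnahc2, Rsph9 and Rfx3 were higher at 1.83, 1.83 and 1.27. Ccdc39, a ciliary assembly gene, was lower at -1.17, and Rfx2, Dnahc11 and Spag17 were not called at 0.01, -0.51 and 0.72.

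Thymic epithelial genes, which go with Foxn1, had few counts. The samples were bone marrow and spleen and not thymus, so the list does not measure thymic epithelium here. Of 16 genes 8 had under 20 counts, and Krt5, Cldn3, Trp63 and Pax1 had none. Of the 5 with at least 100 counts 3 were lower and 2 were neither. Cldn4, a tight junction gene, had 0 and 516 counts. Against the floor of 3 counts its knockout level was 169.5-fold lower, a log2 ratio of -7.41. Its exact interval ended at -7.10, a smaller difference. Epcam and Ccl25 were lower at -1.88 and -1.06. The call of Ccl25 ended, at -0.98 and -0.99, under TMM and median of ratios scaling. It also ended, at -0.96, with a depth computed without mitochondrial and erythroid genes. Ctsl and Pax9 were not called, at 0.43 and -0.44.

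Markers of other blood cells differed between the pools beside these groups, and genotype and tissue mix cannot be told apart in these lists. Over all genes with at least 100 counts, 11.2% were called higher and 5.36% lower. Of 24 myeloid genes 14 were higher and none lower, with a median of 1.31, from Mpo at 1.07, Csf3r at 1.17 and Fcgr3 at 1.45 to Cd14, Spic and Marco at 2.18, 2.20 and 2.43. S100a9, Ngp and S100a8 were at 0.49, -0.09 and 0.29, and the list summed to 2866 and 2202 CPM. Of 10 measured NK and cytotoxic genes 8 were higher and 2 neither, with a median of 1.68. They ran from Ccl5, Nkg7 and Gzmk at 1.19, 1.35 and 1.49 to Klrd1, Prf1 and Fasl at 2.26, 2.27 and 2.87. The sum was 244 and 250 CPM, most of it Gzma at -0.29. Myeloid and NK cells are known to express Inpp5d, Pik3r5 and Fasl, and their part in those ratios was not tested.

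Of 17 erythroid genes 4 were higher and none lower, with a median of 0.57 and sums of 27948 and 14374 CPM. The called genes were Epb4.2 (1.27), Alas2 (1.33), Hba-a2 (1.11) and Hba-a1 (1.27), and the alpha globin copies share reads. Hbb-b1, Slc4a1 and Hbb-b2 were at 1.00, 0.67 and 0.67, where Hbb-b1 lay just under the minimum. Hbb-b1 was called higher under TMM, at 1.08, and median of ratios, at 1.07. It was also called, at 1.09, with a depth computed without mitochondrial and erythroid genes. Foxo3, which acts in these cells, was at -0.09. Among 9 measured B cell genes, Pax5 was called lower at -2.04 and Spib at -3.01, with a median of -0.20 and sums of 86.9 and 151 CPM. Pou2af1, at 75.3 and 134 CPM, made up most of those sums, and was at -0.84. Cd22 and Cd79a were at -0.74 and -0.05, and Cd79b was at 0.98 (0.65 to 1.32). Cd79b was called higher under TMM and median of ratios scaling, and with a depth computed without mitochondrial and erythroid genes. B cells depend on Foxo1 and Foxp1, and their part in the ratios of those genes was not tested. No gene of the 4 lists just named, myeloid, NK and cytotoxic, erythroid and B cell, was at 0 in both pools.

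**Figure D4:**
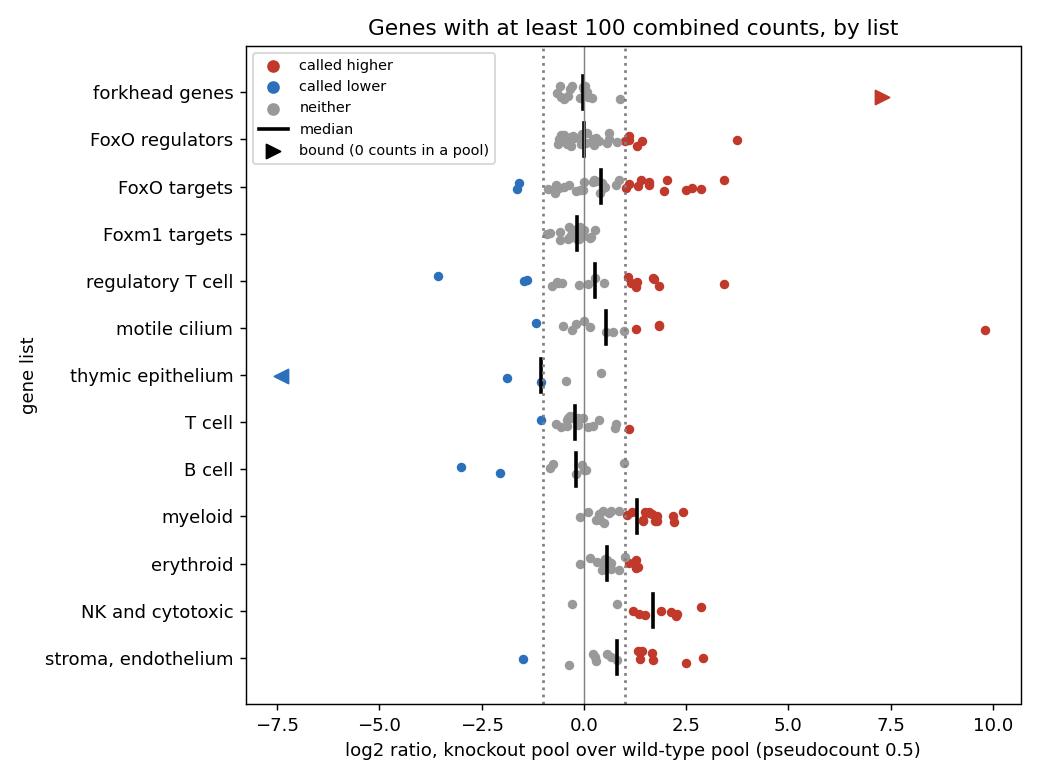
Log2 ratio of knockout over wild-type for genes with at least 100 combined counts, 1 point a gene, for the forkhead genes and the 12 lists. Black bars are medians. Triangles, which the legend calls bounds, are Foxb2 (7.29) and Cldn4 (-7.41) against a floor of 3 counts in the empty pool. The forkhead genes other than Foxb2 lie within 2-fold, while the medians of the myeloid and NK lists lie at 1.31 and 1.68.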

How the data were processed

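Stranded libraries of poly(A) RNA gave 50-base single reads, per the labels' protocols. The submitters' processing notes name CASAVA, TopHat and the mm9 build, without versions. The gene counts were pooled by genotype by the authors, per the file headers and values. The samples behind each pool, the annotation and any use of strand are not given in the labels or headers. Of the 37224 rows, 13843 had no count. The log2 ratios, p-values, q-values and z score in the deposited table come from the authors' DEGseq comparison; of these only the q was printed.

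CPM, log2 ratios, Clopper-Pearson intervals and Poisson intervals of levels were computed with scipy 1.17.1 in Python 3.11.15, treating reads as independent molecules. The calls were also run on simulated Poisson counts without spread between tumours. The intervals rest on the same counting model, so that run could not show how far tumours vary. TMM factors came from edgeR 4.0.16. Also tried were a pseudocount of 5, upper quartile scaling, median of ratios scaling and other minimums. Exon lengths and identifiers came from GENCODE M21 (GRCm38, not mm9), which held 43 of the 44 members. Members and lists were chosen with earlier results of these data known. Named were all members with 20 or more counts and, in lists, called members (the 3 highest and 3 lowest beyond 6) with up to 3 abundant uncalled ones. Some genes that the rule selects are not reported here. Further list genes were chosen after their values were seen.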

Additional observations from a re-analysis of the deposited data

How the results depend on the processing

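Foxb2 was called higher under every scaling, pseudocount, count and fold setting run. The count of forkhead genes called higher, 1, was 5 with a combined count of at least 20 and with no count minimum (Foxb2, Foxc1, Foxc2, Foxq1 and Foxh1), and 2 with a log2 ratio of at least 0.58 (Foxb2 and Foxj1), where those settings called 13.6%, 11.6% and 19% of all genes higher. The count called lower, 0, was 1 with no count minimum (Foxo6) and 2 with a log2 ratio of at least 0.58 (Foxj3 and Foxo4), where 8.44% and 14.9% of all genes were called lower. The authors' deposited q under 0.05 with the same minimums gave 1 higher and 0 lower. The median log2 ratio over the 23 members with at least 20 counts, 0.00105, was 0.0813 with TMM, 0.0940 with a depth without mitochondrial and erythroid genes (added after seeing the data) and 0.78 as a mean. Over the lists, 62 distinct genes were called higher and 13 lower; these were 33 and 7 with a log2 ratio of at least 1.5, and 28 were lower at 0.58. Of 85 member ratios recomputed, 56 stayed inside their counting interval and 29 moved past it, 28 of them towards higher. A change of scaling shifts the ratio of every member by the same amount, so these are not separate results, and their shared direction follows from the scaling. The only called member, Foxb2, had 0 counts in the wild-type pool, so no scaling could turn its direction. Among the uncalled members, Foxb1, Foxj2, Foxk1 and Foxo3 changed sign under at least 1 setting. No paired analysis was possible because the table holds 1 pooled value per genotype, and for the same reason no replicate could be left out. Near 100 combined counts the median half-width of an interval was 0.54 on the log2 scale, and it was 0.049 for genes with 100 times as many.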
